A study of Capra hircus with 10 samples.

Results

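The cilium and axoneme genes described here were the protein-coding genes whose symbols begin with DNAH, DNAI, CFAP, IFT or BBS and a number, together with CCDC39, CCDC40 and FOXJ1. This rule on names took 65 of the 20587 protein-coding symbols and used no expression value. Of these, 43 belong to motile cilia (13 DNAH, 2 DNAI and 25 CFAP genes and the 3 single genes) and 22 to transport inside cilia in general (14 IFT and 8 BBS genes). Total RNA was sequenced from ovaries of Anhui white goats collected at a slaughterhouse, with 5 libraries from luteal phase ovaries and 5 from follicular phase ovaries. The groups share breed and tissue, differ by the labelled estrus phase, and carry no treatment or altered allele. The labels give no age and do not say which animal an ovary came from, so the p-values measure the spread between these ovaries. The question was which of these genes differ in level between the phases.

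Cilia are hair-like extensions of the cell built on a microtubule core, the axoneme. Motile cilia, such as those of the oviduct lining, and sperm tails beat because dynein arms slide the outer doublet microtubules along each other, and the transcription factor FOXJ1 switches on the genes for this machine. Most other cells, including granulosa, theca and stromal cells of the ovary, can carry a single immotile primary cilium that receives signals such as Hedgehog. Both kinds are built by intraflagellar transport (IFT), in which IFT-B particles move cargo toward the tip and IFT-A particles take part in the return, while the BBSome carries membrane proteins out of the cilium.

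Values are FPKM, mapped fragments divided by the length of the transcript and by the total mapped in the library, summed over the transcripts of a gene. Because FPKM is per length, levels can be compared between genes. Every IFT and BBS member was present at 1 FPKM or more on average over the 10 ovaries, with a median of 9.44 and a range from 3.41 to 42.4 FPKM. The motile members were far lower, with a median mean level of 0.152 FPKM and a range from 0.00716 to 52.8. Of the 43 motile members, 35 had a mean under 1 FPKM, and 25 did not reach 0.5 FPKM in any ovary. The other 8 were DNAH10, CFAP206, CFAP70, CFAP54 and CFAP69, at 1.46 to 3.07 FPKM, and CFAP97, CFAP20 and CFAP36, at 17.7, 22.8 and 52.8 FPKM. CFAP20 lies at the junction of the doublet microtubules, and these last 3 were kept among the motile members although their symbols alone do not tie them to motile cells.

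**Figure D1:**
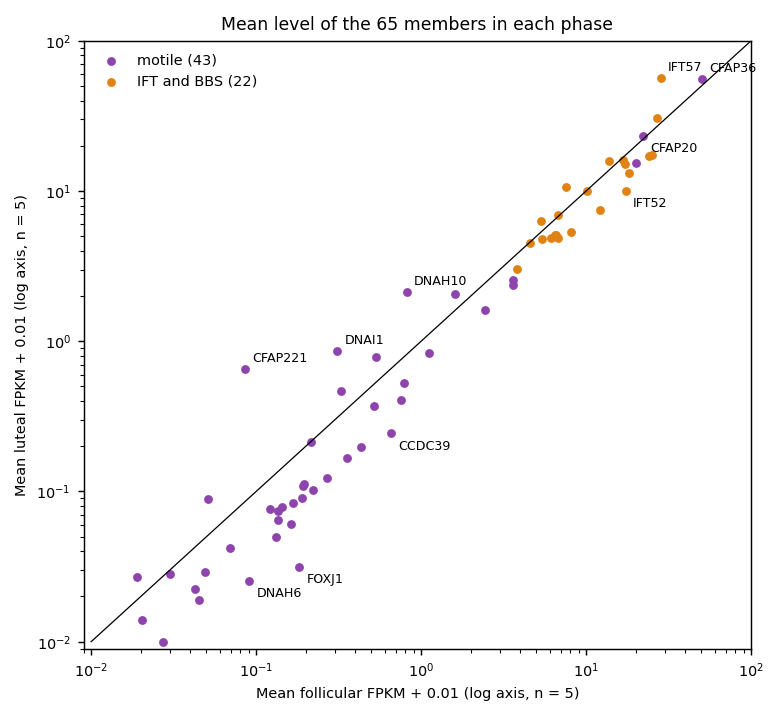
Mean FPKM of the 65 members in the 5 follicular (horizontal) and 5 luteal phase ovaries (vertical), with 0.01 added and both axes logarithmic. Each point is a gene and the line marks equal levels. The 22 IFT and BBS genes sit at the upper end close to the line, most motile genes lie below 1 FPKM and under the line, and DNAH10, DNAI1 and CFAP221 lie above it.

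FPKM summed over all transcripts to between 452508 and 503276 in luteal and between 492324 and 540124 in follicular phase ovaries. The number of reads per ovary is not given in the sources used here. The steps between low values put the worth of 1 fragment at 0.747 to 1.13 times that of luteal replicate 1 in follicular phase ovaries. It was under 1 in follicular replicates 1, 2 and 4, and 1 to 1.15 in luteal phase ovaries. Transcripts above 0 numbered 38433 to 40259 in follicular and 36980 to 37707 in luteal phase ovaries, without overlap. The part of these differences in the results was not tested. In the tissue check, the 4 luteal markers in the table (OXT, PTGFR, LHCGR and LOC102173131) summed to 3687 to 5692 FPKM in luteal and 110.5 to 157.8 FPKM in follicular phase ovaries. The 6 granulosa cell markers were present in all 10 and summed to 92.0 to 638.5 FPKM in luteal and 202.8 to 1054 FPKM in follicular phase ovaries, with AMH, FSHR and FOXL2 called lower in the luteal phase (−1.42, −0.94 and −0.76). Of the listed theca markers, INSL3 was called lower (−2.42), while STAR, which luteal cells also express, was called higher together with the luteal markers (7.35), 5 of 7 oocyte markers were called lower (1 of them passing the filter mainly through its follicular values), and all 4 endothelial markers were called higher (0.91 to 1.41). Of the 5 stromal markers LUM was called higher and TCF21 lower, and none of the 4 leukocyte markers was called by limma or had an unadjusted p under 0.05. Several of these lists moved with the phases that are compared here, and their part in the results was not tested. Since the libraries are of bulk tissue, fewer cells of a type and less RNA per cell cannot be told apart in any result that follows. Genes with at least 0.1 FPKM in at least 5 ovaries were tested with limma on log2(FPKM + 0.1), and an adjusted p under 0.05 over all 15359 genes tested counts as a call. Fold changes are luteal minus follicular on that log2 scale, where the added value makes changes of low genes look smaller than they are.

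Many genes of all kinds differed between these ovaries. Over all 15359 genes tested, 43.7% were called, 15.9% higher and 27.8% lower in the luteal phase, and the median fold change was −0.14. Of the 26 motile members that passed the filter, 16 (61.5%) were called, 5 higher and 11 lower, with a median of −0.48 and a range from −1.22 to 2.13. The remaining 17 motile members were below the filter and were not tested. Of the 22 IFT and BBS members, 11 (50.0%) were called, 2 higher and 9 lower, with a median of −0.24 and a range from −0.79 to 0.98. Of the 16 motile calls, 5 were of genes that passed the filter mainly through the phase in which they were higher, and without these 5 genes 11 of 21 (52.4%) were called. The differences between these shares and the 43.7% of all genes were not tested. With a pseudocount of 1 the motile median was −0.14, against −0.099 over all genes. The direction depended in part on scaling: with the ovaries shifted to a common median the split was 5 higher and 7 lower among motile members and 3 higher and 8 lower among IFT and BBS members, and as TPM it was 6 and 8, and 5 and 6. As TPM more low genes passed the filter, so that 33 motile members were tested, and among the 26 motile members tested as FPKM the TPM split was 6 higher and 5 lower. Over all genes, 36.3% of calls were higher in the luteal phase as deposited, 48.8% after the common median shift and 52.1% as TPM.

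The number of motile calls and their split also changed when single ovaries were left out. There were 8 calls without luteal replicate 4 (3 higher, 5 lower) and 9 without luteal replicate 2 or follicular replicate 3 (3 higher, 6 lower). Without luteal replicate 5 or without follicular replicate 1 there were 8, with 4 in each direction, so the excess of lower calls was not seen there. The motile median fold change stayed between −0.50 and −0.41 in the fits without an ovary. The share of all genes called in those fits is not given here. A general loss of calls with fewer ovaries was thus not told apart from a loss among motile members. Of 19 alternatives (9 other settings and 10 fits without an ovary), in each that tested the gene, 5 of the 16 motile calls and 7 of the 11 IFT and BBS calls were made again. The 5 were DNAH10, DNAI1 and CFAP221, higher in the luteal phase, and CCDC39 and CFAP97, lower in it. The 7 were IFT57, higher, and IFT52, IFT81, IFT88, IFT46, IFT74 and BBS12, lower. In a further fit per transcript, the most abundant transcript of IFT74 and of BBS12 was not called, while that of the other 10 genes was. The losses given beside single genes leave aside the pairing of ovaries by replicate number.

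**Figure D2:**
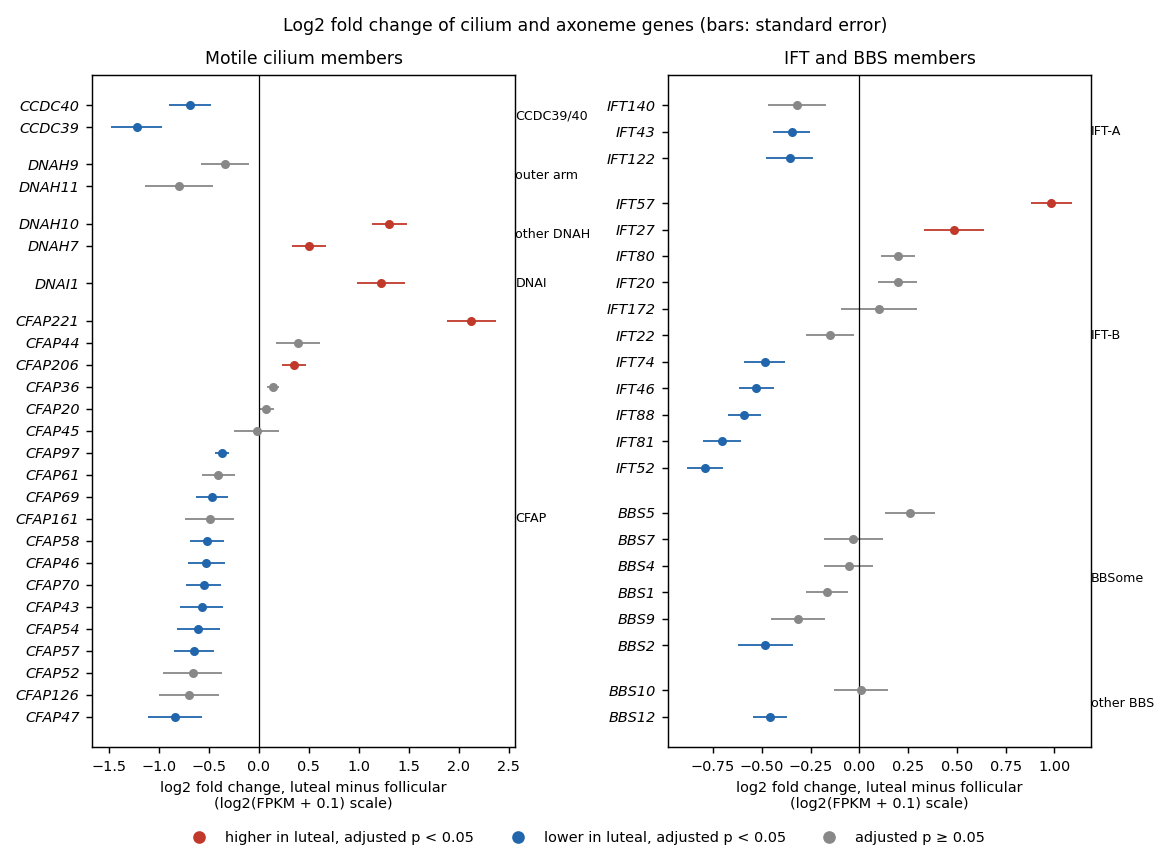
Log2 fold change, luteal minus follicular on the log2(FPKM + 0.1) scale, of the 26 tested motile members (left) and the 22 IFT and BBS members (right), ordered by role. Points are estimates, bars are standard errors and colours give the call at an adjusted p of 0.05. The horizontal scales of the panels differ. CFAP221, at 2.13, is the highest of the 48 and CCDC39, at −1.22, the lowest.

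FOXJ1, the regulator that turns on motile cilium genes, was close to the lower limit of the measurement. Its FPKM was 0.0248, 0.0123, 0.071, 0 and 0 in luteal replicates 1 to 5 and 0.0381, 0.284, 0.0369, 0.0399 and 0.467 in follicular replicates 1 to 5. Follicular replicates 5 and 2 stood above the other 8 ovaries, while the remaining 3 follicular values lay inside the luteal range. FOXJ1 did not pass the filter and was not tested.

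CCDC39 and CCDC40 form the molecular ruler on the doublet microtubules that sets where inner dynein arms attach. CCDC39 was at 0.286, 0.0693, 0.355, 0.237 and 0.22 FPKM in luteal replicates 1 to 5 and at 0.593, 0.596, 0.731, 0.569 and 0.734 in follicular replicates 1 to 5. Every luteal value lay below every follicular one, and the fold change was −1.22 (SE 0.25, limma adjusted p = 0.00269). CCDC40 was at 0.11, 0.0548, 0.131, 0.077 and 0.0879 FPKM in the luteal and at 0.198, 0.163, 0.269, 0.143 and 0.288 FPKM in the follicular phase ovaries. The partners thus shared the direction, with no overlap of the phases in either, and CCDC40 differed by −0.69 (SE 0.21, limma adjusted p = 0.0202). However, CCDC40 passed the filter mainly through its follicular values, since only 2 luteal phase ovaries reached 0.1 FPKM. Its call was lost without follicular replicate 3.

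The dynein heavy chains are the motors of the arms, and 9 of the 13 were below the filter. DNAH10, a heavy chain of the inner arm, was at 2.08, 2.53, 1.99, 1.88 and 2.05 FPKM in luteal replicates 1 to 5 and at 1.13, 0.743, 0.637, 0.622 and 0.907 FPKM in follicular replicates 1 to 5. The phases were clearly apart, with a luteal mean 2.61 times the follicular mean and a fold change of 1.31 (SE 0.17, limma adjusted p = 0.000182). DNAH7, another inner arm heavy chain, was at 0.656, 0.791, 0.816, 0.717 and 0.872 FPKM in the luteal and at 0.659, 0.553, 0.416, 0.388 and 0.595 FPKM in the follicular phase ovaries. Luteal replicate 1 and follicular replicate 1 were at nearly the same level, and the other luteal values were above all follicular ones. DNAH7 differed by 0.50 (SE 0.17, limma adjusted p = 0.0346), and this call was lost with no filter, without luteal replicate 2, 3, 4 or 5 and without follicular replicate 3 or 4.

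The outer arm heavy chains gave no call by limma, and 1 of the 2 tested had an unadjusted p under 0.05. DNAH9 was at 0.934, 1.02, 0.915, 0.616 and 0.639 FPKM in the luteal and at 0.766, 1.86, 1.18, 0.888 and 0.835 FPKM in the follicular phase ovaries (−0.34, SE 0.24, limma adjusted p = 0.276). DNAH11 was at 0.137, 0.169, 0.387, 0.0991 and 0.147 FPKM in the luteal and at 0.462, 0.277, 0.322, 0.184 and 0.861 FPKM in the follicular phase ovaries (−0.80, SE 0.34, limma adjusted p = 0.0780). In each the phases overlapped, with follicular replicate 2 highest for DNAH9 and follicular replicate 5 for DNAH11. DNAH11 was called without luteal replicate 3, at −1.01, or without follicular replicate 4, at −0.99. The other 3 outer arm members, DNAH5, DNAH8 and DNAH17, did not pass the filter. For DNAH8 the luteal values ran from 0.016 to 0.0633 FPKM and the follicular ones from 0.0766 to 0.165. DNAH17 ran from 0.0317 to 0.0953 FPKM against 0.0985 to 0.162, so the phases did not overlap for either gene. DNAH5 did overlap, with follicular replicate 2 highest at 0.306 FPKM.

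Of the 6 untested inner arm and other heavy chains (DNAH1, DNAH2, DNAH3, DNAH6, DNAH12 and DNAH14), none had a mean above 0.111 FPKM in either phase. DNAH6 was the only one of the 6 whose phases did not overlap, at 0.00634 to 0.0202 FPKM in luteal and 0.0482 to 0.181 FPKM in follicular phase ovaries. Thus DNAH6, DNAH8 and DNAH17, untested and near the lower limit of the measurement, had lower values in the luteal phase. DNAH10, which was tested, was higher there. The share of all genes below the filter with no overlap was not determined.

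DNAI1 and DNAI2 are intermediate chains that hold the outer arm together. DNAI1 was at 1.06, 1.29, 0.667, 0.644 and 0.607 FPKM in luteal replicates 1 to 5 and at 0.385, 0.216, 0.23, 0.377 and 0.289 FPKM in follicular replicates 1 to 5. The luteal values were all above the follicular ones, with luteal replicates 1 and 2 highest, and the fold change was 1.22 (SE 0.24, limma adjusted p = 0.00187). DNAI2 was below the filter, with luteal values from 0.0209 to 0.152 FPKM and follicular values from 0.028 to 0.33 FPKM that overlapped.

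The 2 transcripts of DNAI1 did not behave alike. The more abundant transcript made up 96.4% of the luteal mean of the gene but 45.4% of the follicular mean. It was at 0.907, 1.29, 0.667, 0.644 and 0.607 FPKM in the luteal and at 0.284, 0.00468, 0.0148, 0.377 and 0 FPKM in the follicular phase ovaries. In follicular replicates 2, 3 and 5 nearly all DNAI1 signal was assigned to the other transcript, which was listed at 0 in luteal replicates 2 to 5. On the transcript level the more abundant form differed by 2.26 (SE 0.50, limma adjusted p = 0.0121) and the other by −0.98 (SE 0.42, limma adjusted p = 0.136). How Cuffdiff divided shared reads between the forms was not tested. Of the 80 member transcripts that passed the same filter, 11 were called, against 17.3% of all transcripts tested, and none of the 22 members with several transcripts had calls in opposite directions.

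**Figure D3:**
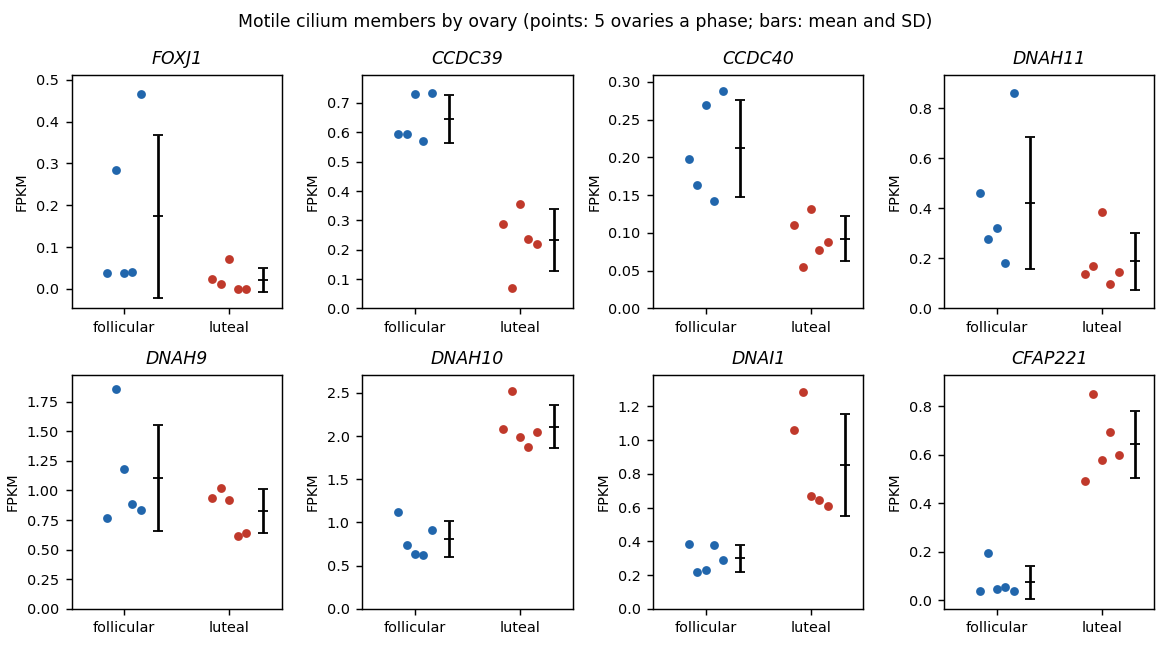
FPKM of 8 motile cilium members in each ovary. Points are ovaries, 5 a phase, and bars are the mean and SD. FOXJ1, CCDC39, CCDC40, DNAH11 and DNAH9 have lower luteal means, while for DNAH10, DNAI1 and CFAP221 all luteal points are above all follicular points. The vertical scales differ.

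Among the 25 CFAP members, proteins of the cilium and flagellum with varied places in the axoneme, 19 were tested, 2 were called higher and 9 lower, or 57.9% against 43.7% of all genes (15.9% higher and 27.8% lower). CFAP221, a protein of the central pair apparatus, was at 0.491, 0.85, 0.58, 0.692 and 0.6 FPKM in luteal replicates 1 to 5 and at 0.0383, 0.197, 0.0481, 0.0558 and 0.0401 FPKM in follicular replicates 1 to 5. The luteal mean was 8.48 times the follicular mean, and the phases did not overlap even though follicular replicate 2 was well above the other 4 (2.13, SE 0.25, limma adjusted p = 7.72e-05). Without follicular replicate 2 the ratio of means was 14.1. CFAP221 passed the filter through its luteal values, since only 1 follicular ovary reached 0.1 FPKM. CFAP43 and CFAP57 reached it in 1 luteal ovary each, and CFAP46 and CCDC40 in 2. These 5 genes thus passed mainly through the phase in which they were higher, and all 5 were called. All but CCDC40 count among the CFAP calls, so the 57.9% rests in part on the filter. Over all motile members the share called was 52.4% without the 5 genes.

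CFAP97 was at 15.5, 14.9, 16.2, 15.4 and 15.2 FPKM in the luteal and at 18.4, 19.6, 19.8, 19.6 and 22.9 FPKM in the follicular phase ovaries. The difference was small but larger than the narrow spread between ovaries (−0.37, SE 0.069, limma adjusted p = 0.00154). CFAP36, the most abundant of all 65 members, was at 55.4 ± 0.450 FPKM in luteal and 50.3 ± 3.73 FPKM in follicular phase ovaries (SD, n = 5 each), a difference of 0.14 that was not called (SE 0.061, limma adjusted p = 0.0843). It was called as TPM and without follicular replicate 2. CFAP20 was at 23.4 ± 1.31 and 22.2 ± 2.14 FPKM (SD, n = 5 each) and was not called (0.07, SE 0.078, limma adjusted p = 0.457).

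CFAP57, which takes part in attaching inner dynein arms, was at 0.0806 ± 0.0350 FPKM in luteal and 0.181 ± 0.0362 FPKM in follicular phase ovaries (SD, n = 5 each). CFAP70, found near the outer arm, was at 1.60 ± 0.229 and 2.43 ± 0.522 FPKM (SD, n = 5 each). Both were called lower (−0.65 and −0.55, limma adjusted p = 0.0225 and 0.0255). The call of CFAP57 was lost with quantile scaling and without luteal replicate 5, and that of CFAP70 as TPM and in the fits without luteal replicate 4 or 5 or without follicular replicate 1, 3, 4 or 5.

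The remaining CFAP calls are named after their values were seen. CFAP206, tied to the radial spokes, was at 2.1, 2.17, 1.87, 2.25 and 1.93 FPKM in the luteal and at 1.36, 1.56, 1.64, 1.74 and 1.67 FPKM in the follicular phase ovaries. These ranges did not overlap (0.35, SE 0.12, limma adjusted p = 0.0305), but the call was lost with no filter and without luteal replicate 1, 2 or 4 or follicular replicate 1 or 3. CFAP47, CFAP54, CFAP43, CFAP46, CFAP58 and CFAP69, of which CFAP46, CFAP47, CFAP54 and CFAP69 belong to the central apparatus, were called lower by −0.84 to −0.47. Each of the 10 ovaries ended at least 1 of these 6 calls when it alone was left out. With the common median shift CFAP43, CFAP46, CFAP54 and CFAP69 were not called, nor were these and CFAP58 as TPM, nor CFAP43, CFAP46 and CFAP47 with quantile scaling, nor CFAP54 with no filter. CFAP43 was also not called with a pseudocount of 1 or 0.01, nor CFAP46 with a pseudocount of 1. The 6 untested CFAP members (CFAP65, CFAP73, CFAP74, CFAP77, CFAP99 and CFAP157) overlapped between the phases, and CFAP77 was listed at 0 in all luteal phase ovaries.

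Of the 26 tested motile members, 4 had every luteal value above every follicular value and 6 had every luteal value below, or 38.5% in either direction. Over all genes tested these shares were 11.2% and 17.2%, or 28.4% in either direction. Without the 5 genes that passed the filter mainly through 1 phase, 6 of 21 motile members (28.6%) had no overlap. The untested members DNAH6, DNAH8 and DNAH17 also had no overlap, but these shares do not cover genes below the filter. The highest of the 10 values of a tested motile member was in a follicular phase ovary for 17 of 26 genes. For 10 of them it was in follicular replicate 5. Among the 22 IFT and BBS members it was in a follicular phase ovary for 17 and in follicular replicate 5 for 8. The same share over all genes was not counted. Among the 15 dynein members, follicular replicate 2 was the highest follicular ovary for 7 and luteal replicate 3 the highest luteal ovary for 7. The median coefficient of variation of the tested motile members was 22.0% between follicular and 29.3% between luteal phase ovaries, against 11.8% and 10.4% for the IFT and BBS members.

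The oviduct lining is rich in ciliated cells. Genes listed as markers of it and of the ovarian surface epithelium were read in the same ovaries. Of the oviduct list, OVGP1 and MUC16 had no row in the table, so the remaining genes do not single out the oviduct lining. The 6 in the table were CDH1, KRT7, ELF3, EPCAM, CLDN4 and PAX8. They summed to between 3.06 and 5.56 FPKM in luteal and between 2.70 and 5.60 FPKM in follicular phase ovaries. The sum was highest in follicular replicate 5 and luteal replicate 4. Of the 6, CDH1 was called higher in the luteal phase, KRT7 and ELF3 lower, and none was listed at 0. ELF3 reached 0.1 FPKM in 1 luteal phase ovary and passed the filter through its follicular values. The 6 surface epithelium markers in the table summed to between 17.9 and 38.3 FPKM in luteal and between 19.0 and 60.1 FPKM in follicular phase ovaries, highest in follicular replicate 2, with MSLN called higher and KRT19 and UPK1B lower. The part of these cells in the results was not tested.

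The IFT-B members, the machinery that carries cargo toward the tip, were called in both directions. IFT57, a peripheral IFT-B subunit, was at 51.8, 44.6, 56.0, 67.7 and 62.7 FPKM in luteal replicates 1 to 5 and at 26.1, 27.4, 29.1, 28.0 and 30.8 FPKM in follicular replicates 1 to 5. The lowest luteal value exceeded the highest follicular one, the mean was 2.00 times the follicular mean and the fold change was 0.98 (SE 0.11, limma adjusted p = 4.27e-05). IFT57 was the most abundant of the 22 IFT and BBS members.

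Several core subunits of the same particle went the other way. IFT52 was at 9.22, 10.6, 11.5, 9.88 and 8.95 FPKM in the luteal and at 18.0, 15.2, 16.8, 17.5 and 19.6 FPKM in the follicular phase ovaries, a difference of −0.79 (SE 0.092, limma adjusted p = 8.19e-05). IFT81, which binds tubulin together with IFT74, was at 7.67, 8.30, 7.75, 6.97 and 6.44 FPKM in the luteal and at 11.7, 14.1, 12.3, 12.0 and 10.7 FPKM in the follicular phase ovaries (−0.70, SE 0.097, limma adjusted p = 0.000234). In each of these core subunits all luteal values lay below all follicular values. IFT88 likewise did not overlap, at 5.31 ± 0.396 FPKM in luteal and 8.04 ± 0.543 FPKM in follicular phase ovaries (SD, n = 5 each; −0.59, SE 0.086, limma adjusted p = 0.000349).

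Further IFT-B calls are named after their values were seen. IFT46 (−0.53, SE 0.090, limma adjusted p = 0.000872) and IFT74 (−0.49, SE 0.10, limma adjusted p = 0.00338), also core subunits, were lower in the luteal phase. IFT27, a small GTPase of the core that is linked to BBSome traffic, was higher at 0.49 (SE 0.16, limma adjusted p = 0.0253). Its phases overlapped, at 7.90 to 13.2 FPKM in luteal and 6.59 to 9.72 FPKM in follicular phase ovaries, and the call was lost without luteal replicate 1 or 3 or follicular replicate 1, 3 or 4. IFT20, which also works at the Golgi, was not called (0.20, SE 0.10, limma adjusted p = 0.128), although as TPM it was. IFT22, IFT80 and IFT172 were not called either.

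**Figure D4:**
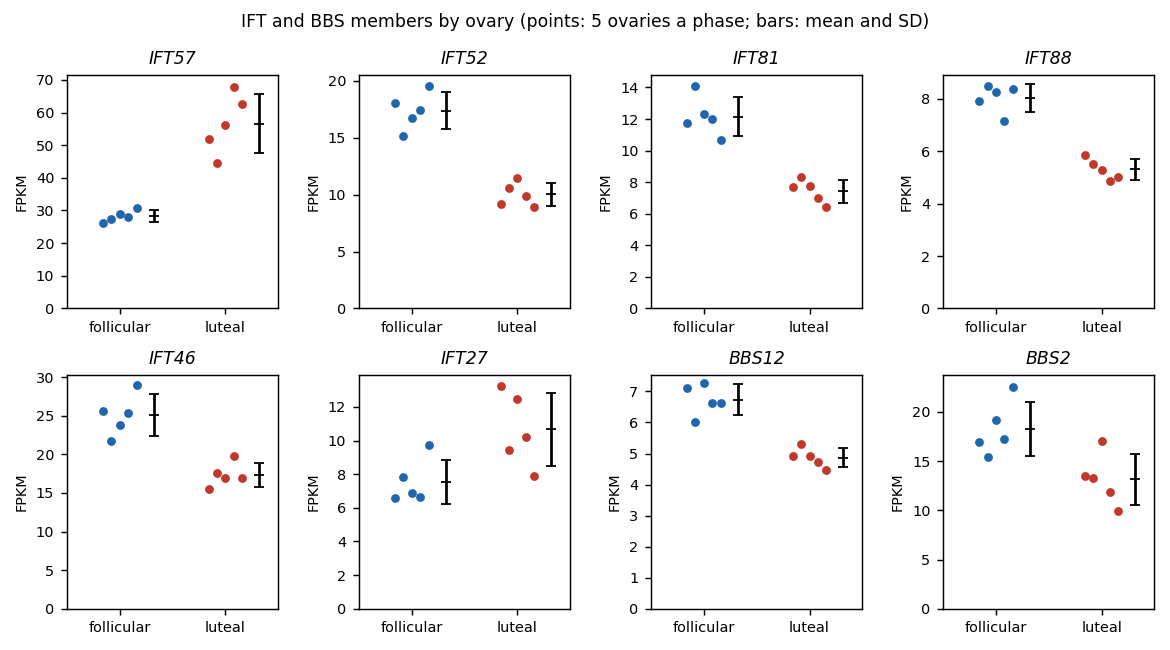
FPKM of 8 IFT and BBS members in each ovary. Points are ovaries, 5 a phase, and bars are the mean and SD. IFT57 lies between 44.6 and 67.7 FPKM in luteal and between 26.1 and 30.8 FPKM in follicular phase ovaries, while IFT52, IFT81, IFT88, IFT46 and BBS12 lie lower in every luteal ovary. IFT27 and BBS2 overlap, and the vertical scales differ.

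All 3 IFT-A members had lower luteal means. IFT43 was at 4.72, 5.79, 4.80, 5.34 and 4.75 FPKM in the luteal and at 7.18, 5.95, 6.05, 6.48 and 6.76 FPKM in the follicular phase ovaries, a narrow but complete separation (−0.35, SE 0.095, limma adjusted p = 0.0123) that was not called as TPM. IFT122 was called at −0.36 (SE 0.12, limma adjusted p = 0.0319). That call was lost with the common median shift, quantile scaling and TPM, and without luteal replicate 4 or 5 or follicular replicate 1, 3 or 5. IFT140 was not called (−0.32, SE 0.15, limma adjusted p = 0.101), but it was without luteal replicate 1 or follicular replicate 4.

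Of the 6 BBSome subunits with a BBS symbol, BBS2 alone was called, or 16.7% against 43.7% of all genes. It was at 13.5, 13.3, 17.1, 11.9 and 9.96 FPKM in the luteal and at 17.0, 15.4, 19.2, 17.3 and 22.6 FPKM in the follicular phase ovaries, and luteal replicate 3 reached into the follicular range (−0.48, SE 0.14, limma adjusted p = 0.0175). The call was lost as TPM. BBS1, BBS4, BBS5, BBS7 and BBS9 lay between −0.32 and 0.26 with adjusted p from 0.0816 to 0.885 by limma. BBS5, the only one of these with a positive value, was called as TPM or without follicular replicate 2, and BBS9 without follicular replicate 2. BBS4, at −0.06, turned positive after the common median shift and as TPM, and BBS7, at −0.03, did so after those and quantile scaling.

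BBS10 and BBS12 are chaperonin-like proteins that help the BBSome assemble. BBS12 was at 4.92, 5.31, 4.91, 4.74 and 4.46 FPKM in the luteal and at 7.11, 6.03, 7.27, 6.64 and 6.64 FPKM in the follicular phase ovaries, without overlap (−0.46, SE 0.087, limma adjusted p = 0.00168). BBS10 was at 4.52 ± 0.286 and 4.56 ± 0.947 FPKM (SD, n = 5 each) and was not called (0.01, SE 0.14, limma adjusted p = 0.960). The chaperonins thus differed in outcome at similar levels, and the difference between their changes was not tested. Of the other BBSome subunits, named after their values were seen, BBIP1 was called lower (−0.41, SE 0.078, limma adjusted p = 0.00163) and TTC8 was not called (−0.25, SE 0.14, limma adjusted p = 0.172). Among the 22 IFT and BBS members, 1 had all luteal values above all follicular values and 6 had all below, or 31.8% against 28.4% of all genes tested.

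Other cilium genes, outside the symbol rule, were read from lists of pathway members. Of 62 other motile cilium genes, 57 were in the table and 48 were tested, of which 5 were called higher in the luteal phase and 21 lower, with a median fold change of −0.50. The 26 calls are 54.2% of those tested, against 43.7% of all genes (15.9% higher and 27.8% lower). Among the 48, 5 reached 0.1 FPKM in at most 2 luteal phase ovaries and passed the filter mainly through the follicular phase, and 2 of these 5 were called, both lower. The 5 higher genes, some named after their values were seen, were CCDC151, SPAG17, CAPSL, TEKT2 and SPEF2. SPAG17, a central pair protein, had the largest change, from 0.147 to 0.396 FPKM in follicular to 2.37 to 6.44 FPKM in luteal phase ovaries (3.54, SE 0.31, limma adjusted p = 9.49e-06). CCDC151, which docks the outer dynein arm, ran from 0.767 to 1.74 FPKM in follicular and from 4.53 to 6.55 FPKM in luteal phase ovaries (2.33, SE 0.19, limma adjusted p = 6.07e-06).

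CAPSL, a calcium-binding protein, was higher by 1.69 (SE 0.21, limma adjusted p = 0.000132). MNS1, a protein inside the doublet microtubules, was lower by −0.999 (SE 0.14, limma adjusted p = 0.000224). Of the 3 tektins tested, filament proteins of the doublets, TEKT2 was called higher (1.08) and TEKT1 and TEKT3 lower (−1.01 and −1.02), and the 3 are named after their values were seen.

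Of 56 other primary cilium genes, 53 were in the table and 52 were tested, of which 1 was called higher in the luteal phase and 25 lower, with a median of −0.36. The 26 calls are 50.0% of those tested, against 43.7% of all genes. Of the 4 listed subunits of the retrograde motor, the heavy chain DYNC2H1 was called at −0.55 (SE 0.065, limma adjusted p = 9.36e-05) and the intermediate chain WDR34 at −0.77 (SE 0.12, limma adjusted p = 0.000587). The other motor subunits, named after their values were seen, were not called, with WDR60 at −0.40 (limma adjusted p = 0.0769, called without luteal replicate 3) and DYNC2LI1 at −0.05 (limma adjusted p = 0.756, positive after the common median shift, as TPM and without follicular replicate 1). TRAF3IP1, a further IFT-B subunit, was at −0.55 (SE 0.086, limma adjusted p = 0.000517), and MKKS, a further BBS chaperonin, at −0.43 (SE 0.063, limma adjusted p = 0.000349). None of the 4 called genes had overlapping phases. LZTFL1, which regulates BBSome entry, was the 1 higher gene (0.39, SE 0.078, limma adjusted p = 0.00239). INPP5E (−0.84), a phosphatase of ciliary membrane lipids, was lower, and LZTFL1 and INPP5E are named after their values were seen. As TPM the list had 17 calls of 53 tested in place of 26, 1 higher and 16 lower. Over all genes 5564 of 15969 were called as TPM, so the share of the list was not above that of all genes there.

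Hedgehog signalling runs through the primary cilium, and of its 12 genes 11 were tested and 8 were called (72.7%), all lower in the luteal phase, with a median of −0.84. Over all genes 43.7% were called and 27.8% were lower. The granulosa markers AMH, FSHR and FOXL2 and the theca marker INSL3 were lower in the same ovaries, and their part in this was not tested. STAR, also on the theca list, was higher there like the luteal markers. SMO, the signal transducer, was at 10.7 to 13.8 FPKM in luteal and 20.0 to 26.4 FPKM in follicular phase ovaries (−0.84, SE 0.10, limma adjusted p = 9.89e-05). PTCH1, the receptor, fell by 0.86 (SE 0.15, limma adjusted p = 0.000928) and the ciliary receptor GPR161 by 0.74 (SE 0.14, limma adjusted p = 0.00187). HHIP, an inhibitor of the ligands, was at −1.03 (SE 0.22, limma adjusted p = 0.00330), and the target and transcription factor GLI1, named after its value was seen, at −0.90 (SE 0.20, limma adjusted p = 0.00385). The ligand genes IHH and DHH were not called, at −0.95 and 0.18, and SHH did not pass the filter.

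**Figure D5:**
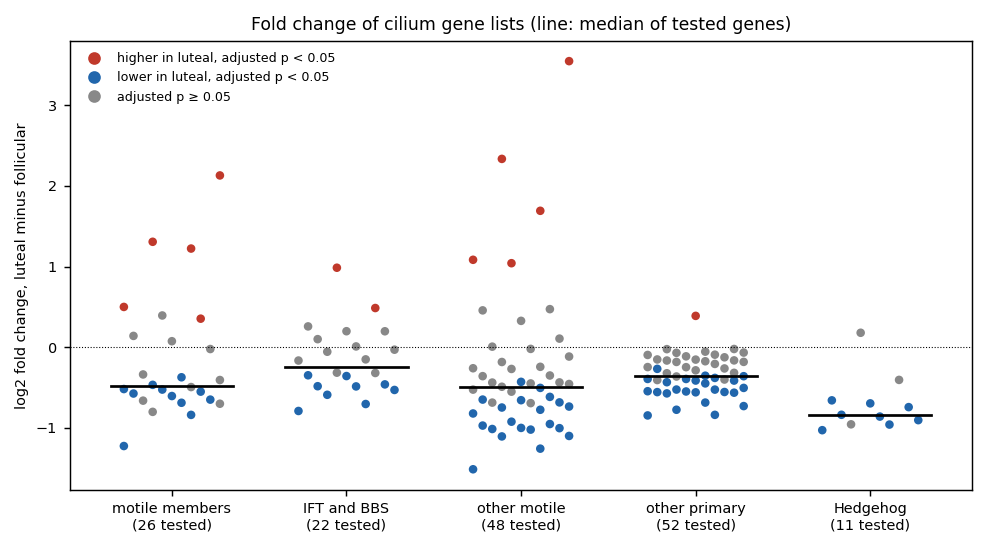
Log2 fold change, luteal minus follicular, of the tested genes in the 2 classes of members and in 3 other cilium lists. Each point is a gene, colours give the call at an adjusted p of 0.05 and bars mark the medians. The medians lie at −0.48, −0.24, −0.50, −0.36 and −0.84, against −0.14 over all genes tested. The highest points, SPAG17 at 3.54, CCDC151 at 2.33 and CFAP221 at 2.13, belong to the motile classes. IFT57, at 0.98, is the highest of the IFT and BBS members.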

How the data were processed

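Each of 10 goat ovaries (5 luteal, 5 follicular) gave 1 strand-specific, paired-end library of total RNA without ribosomal RNA. For alignment the authors used HISAT2, for assembly StringTie, and for the deposited FPKM per transcript and ovary Cuffdiff, without pooling. The genome build is not given in the sources used here. All 10 value columns carried a phase and replicate number. FPKM of protein-coding transcripts (43766 of 50146) was summed by symbol. Read counts were not used here, so precision rests on the spread between ovaries.

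The phases were compared with limma 3.58.1 (lmFit, eBayes with trend) in R 4.3.3, two-sided, with Benjamini-Hochberg adjustment over all 15359 genes with at least 0.1 FPKM in at least 5 of 10 ovaries. Known changes were also added on the log2(FPKM + 0.1) scale to 200 of 15359 genes, with the phase difference removed. The fit recovered 82% of the 200 (67.3% of 2-fold and 97.0% of 4-fold changes), so an uncalled gene may still differ. In the ovaries 43.7% of genes were called, many more than were changed there. The adjustment was thus stricter in that trial, and its rates are not those of the comparison itself. The members, the lists of cilium and marker genes, the tests and the alternatives were chosen with earlier results of these data known. Named genes were, in each role group, the 4 with the smallest adjusted p and the 2 of highest level, all members of groups of at most 6, FOXJ1, CCDC39 and CCDC40, and the 4 with the smallest adjusted p of each other cilium list. Another 21 genes were named after their values were seen. The replicate numbers do not pair the ovaries, since no source ties them and same-number correlations of deviations ran from 0.026 to 0.20. Alternatives were pseudocounts of 1 and 0.01, no filter, at least 0.5 FPKM, a common median, quantile scaling, TPM, no trend, a replicate block, the most abundant transcript of each gene, no CFAP20, CFAP36 and CFAP97, and leaving out each ovary. The alternative of motile members with a mean of at least 0.5 FPKM was added after seeing the data. Symbols of the lists without a row in the table were left out, and a withheld item that the list counts include is not reported here. Sequences were not used here. Python 3.11.15 with pandas 2.3.3, numpy 2.4.6 and matplotlib 3.10.9 was used for sums and plots.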

Additional observations from a re-analysis of the deposited data

Results flagged for a closer look

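In 12 of 134 groups of 5 ovaries (both phases of 67 genes, 62 tested with limma and 5 named members below the filter), the gap between the highest or lowest ovary and its nearest neighbour was over 0.71 of the whole range, the 95% limit of Dixon's test, which chance passes in about 1 in 20 groups. Follicular replicate 2 was the highest follicular ovary for CFAP221 (0.197 FPKM, next 0.0558), DNAH5 (0.306 FPKM, next 0.128) and TEKT2 (0.653 FPKM, next 0.472). Follicular replicate 5 was highest for TEKT1 (1.62 FPKM, next 0.904). Luteal replicate 3 was highest for DNAH11 (0.387 FPKM, next 0.169) and lowest for CCDC151 (4.53 FPKM, next 6.03). Luteal replicate 4 was highest for IFT20 (38.4 FPKM, next 30.3) and lowest for GPR161 (2.99 FPKM, next 4.35). Luteal replicate 5 was lowest for BBS5 (5.60 FPKM, next 6.32) and highest for TRAF3IP1 (3.54 FPKM, next 3.24), luteal replicate 2 was highest for MKKS (21.3 FPKM, next 18.6), and follicular replicate 3 was highest for WDR60 (3.07 FPKM, next 2.21).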

How the results depend on the processing

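Over 62 named genes and their alternatives, 1040 of 1171 comparisons kept direction and side of the threshold, 103 lost a call, 13 gained a call and 15 changed sign. The 15 belonged to genes that were not called. When an ovary was left out, BBS10 ran from −0.077 to 0.090 (negative without luteal replicate 4 or follicular replicate 3 or 4), BBS4 from −0.16 to 0.0049 (positive without luteal replicate 5) and BBS7 from −0.10 to 0.072 (positive without luteal replicate 4, luteal replicate 5 or follicular replicate 3). BBS4 was at 0.029 with the common median and 0.043 as TPM, and BBS7 at 0.055 with the common median, 0.021 with quantile scaling and 0.068 as TPM. DYNC2LI1 was at 0.031 with the common median and 0.044 as TPM, and ran from −0.17 to 0.022 when an ovary was left out. The 16 motile calls became 10 of 13 tested at a minimum of 0.5 FPKM, 9 among members with a mean of at least 0.5 FPKM (chosen after seeing the data), 5 with the most abundant transcript of each gene (3 higher, 2 lower), and 8 to 15 when an ovary was left out. With no filter there were 18, 3 higher and 15 lower. Without CFAP20, CFAP36 and CFAP97 there were 15 calls of 23 tested, 5 higher and 10 lower. The shares of all genes called at a minimum of 0.5 FPKM and with no filter are not given here. The 11 IFT and BBS calls became 6 with the most abundant transcript and 9 to 13 when an ovary was left out. A test per transcript also called fewer features overall (17.3% of transcripts, 43.7% of genes). The 26 other motile calls ran from 20 to 27 and the 26 other primary calls from 22 to 32 when an ovary was left out, and as TPM the latter were 17. The cause of these shifts was not tested. The motile median of −0.48 was −0.14 with a pseudocount of 1, which compresses the change of low genes, and −0.50 to −0.41 when an ovary was left out, and the IFT and BBS median was −0.295 to −0.179. The effect of depth on the 35 motile members under 1 FPKM was not tested.

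A replicate block, in which the ovaries are paired by number, gave 9 motile calls (3 higher, 6 lower) and 11 IFT and BBS calls, 24 other motile and 28 other primary calls. Among the named genes, CFAP43, CFAP46, CFAP57, CFAP58, CFAP69, CFAP206, DNAH7 and IFT27 were not called with it, while BBS9 and WDR60 were. Nothing in the design ties the numbers, and not every ovary correlated best with its own number.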
